A study of Mus musculus with 9 samples.

Results

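The receptors through which haematopoietic growth factors act on myeloid cells were followed across 3 sorted mouse cell populations. The 6 genes were Csf1r, Csf3r, Flt3, Kit, Csf2ra and Csf2rb, found as the probe sets whose only gene symbol in the platform annotation was that gene, and they were 6 of 19938 genes on the arrays. Each had a single such probe set, so no choice between probe sets was needed. Lymph nodes gave the T cell zone macrophages, called TZM, which were sorted as GFPhi, MertK+, CD169- and CD11b+. The microglia came from brain and were sorted as GFPhi, CD11b+ and CD45+, and the CD8a+DC are dendritic cells sorted as CD64-, CD11chi, MHCIIhi and CD8a+. All came from CX3CR1 gfp+/- mice, in which a green fluorescent protein reporter stands in an allele of the fractalkine receptor gene Cx3cr1, and each population had 3 biological replicates on 1 array each. Tissue was digested with collagenase and enriched with magnetic beads before the sort. The CD8a+DC are labelled as lymph node cells in the sample fields and as splenic cells in the sorting protocol. None of the 6 receptors was a sort marker.

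CSF1R, FLT3 and KIT are related receptor tyrosine kinases. CSF1R binds CSF1 and IL-34 and is needed for the survival of most tissue macrophages and of microglia, FLT3 binds FLT3 ligand and drives the development of dendritic cells from bone marrow progenitors, and KIT binds stem cell factor and marks progenitors and mast cells. The other 3 belong to the cytokine receptor family without a kinase of their own and signal through Janus kinases. CSF3R is the G-CSF receptor of neutrophils, and CSF2RA is the GM-CSF-binding chain that pairs with the shared signalling chain CSF2RB, which also serves the receptors for IL-3 and IL-5.

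Levels are given as log2 values after robust multi-array averaging (RMA), so a difference of 1 is a 2-fold difference. The medians of the 9 arrays over all genes ran from 4.90 to 5.02, and levels about there are not separated from background, so a difference that reaches down to them tends to be understated. Markers other than the receptors were read against the labels. Of 8 measured macrophage markers, 8 reached a level of 6 in TZM, 8 in microglia and 2 in CD8a+DC, and of 10 markers of type 1 dendritic cells, 5 reached it in TZM, 4 in microglia and 10 in CD8a+DC. Among these, Mertk, Fcgr1 (CD64), Itgax (CD11c) and Cd8a correspond to sort markers, so their levels follow the sort in part. All 9 measured microglia markers reached a level of 6 in microglia, against 6 in TZM and 2 in CD8a+DC. Of 5 measured markers of plasmacytoid dendritic cells, 5 reached it in CD8a+DC, 3 in TZM and 3 in microglia. Their array mean was 7.63 to 7.71 in CD8a+DC, 6.64 to 6.80 in TZM and 7.05 to 7.23 in microglia. Of 4 salivary gland markers 3 reached it in TZM, with an array mean of 6.68 to 8.51 in TZM, 3.44 to 3.47 in microglia and 3.50 to 3.72 in CD8a+DC, and the choroid plexus transcript Ttr was at 12.15, 5.48 and 11.83 in microglia. The part of such other cells in the results was not tested. In sorted populations, fewer cells that carry a transcript and less of it per cell cannot be told apart.

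The receptors split into 3 patterns. Csf1r and Csf3r were high in microglia and TZM and low in CD8a+DC, Flt3 and Kit were high in CD8a+DC and low in the others, and Csf2ra and Csf2rb were carried by all 3 populations at levels above 7, with the lowest in microglia. Calls needed an adjusted p under 0.05 (limma, Benjamini-Hochberg over all genes) and a log2 fold change of 1 or more in size, the fold minimum. Between TZM and CD8a+DC 4 of 6 receptors were called, 2 higher and 2 lower, where 8.74% of all genes were called (4.71% higher, 4.03% lower). Between TZM and microglia 2 of 6 were called, 1 higher and 1 lower, against 7.65% of all genes (4.25% higher, 3.4% lower). Between microglia and CD8a+DC 6 of 6 were called, 2 higher and 4 lower, against 11.2% of all genes (5.15% higher, 6.01% lower). The arrays did not overlap for 6 of 6 receptors in each comparison, as was so for 32.3% of all genes between TZM and CD8a+DC, 30.5% between TZM and microglia and 37.8% between microglia and CD8a+DC.

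The promoter windows below show the DNA at the start of a gene from each pattern and of both genes of the dendritic cell pattern. They are RefSeq windows of build GRCm38.p6 from 250 bases before to 50 after the annotated start, written 5′ to 3′ on the gene's strand, and capitals mark GAGGAA, the core recognised by the myeloid factor PU.1. The window of Csf3r is chr4:126024409-126024708 on the plus strand, that of Flt3 is chr5:147400440-147400739 on the minus strand, that of Kit is chr5:75574737-75575036 on the plus strand and that of Csf2ra is chr19:61228369-61228668 on the minus strand.
Csf3r: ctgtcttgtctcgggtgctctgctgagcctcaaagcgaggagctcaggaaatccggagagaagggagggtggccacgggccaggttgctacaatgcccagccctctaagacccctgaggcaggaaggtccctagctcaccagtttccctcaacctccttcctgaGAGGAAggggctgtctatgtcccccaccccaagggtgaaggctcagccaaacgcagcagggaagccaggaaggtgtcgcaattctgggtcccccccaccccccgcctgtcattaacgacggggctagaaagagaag
Flt3: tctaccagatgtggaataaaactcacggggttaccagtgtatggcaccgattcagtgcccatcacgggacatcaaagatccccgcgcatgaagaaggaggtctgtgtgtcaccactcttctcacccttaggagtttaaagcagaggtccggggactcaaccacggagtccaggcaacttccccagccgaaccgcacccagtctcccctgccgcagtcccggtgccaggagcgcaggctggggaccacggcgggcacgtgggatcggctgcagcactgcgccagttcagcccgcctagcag
Kit: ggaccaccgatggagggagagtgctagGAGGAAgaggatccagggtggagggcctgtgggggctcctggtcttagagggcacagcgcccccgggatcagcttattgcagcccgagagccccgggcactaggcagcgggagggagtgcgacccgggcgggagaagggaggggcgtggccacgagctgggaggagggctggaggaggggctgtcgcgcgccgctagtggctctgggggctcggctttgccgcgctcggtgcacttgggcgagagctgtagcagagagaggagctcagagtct
Csf2ra: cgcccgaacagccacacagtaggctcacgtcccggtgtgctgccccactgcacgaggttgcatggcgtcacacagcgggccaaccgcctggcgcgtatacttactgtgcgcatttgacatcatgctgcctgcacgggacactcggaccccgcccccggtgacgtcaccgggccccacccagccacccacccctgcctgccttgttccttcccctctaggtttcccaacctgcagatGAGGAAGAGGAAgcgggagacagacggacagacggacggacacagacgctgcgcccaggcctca
The motif GAGGAA, searched on both strands, occurred 1 time in the Csf3r window, 1 time in the Kit window and 2 times, side by side, in the Csf2ra window, and these letters were not in the Flt3 window. Of 32851 promoter windows of this length, 28.3% held it. TTGCNNAA for C/EBP factors (10.8% of windows), TGTGGT for RUNX factors (16.8%) and AGATAA for GATA factors (11.2%) were not in these 4 windows, and CAACNG for MYB (35% of windows) occurred 1 time, in that of Csf2ra. A match describes the letters and is not a binding site.

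**Figure D1:**
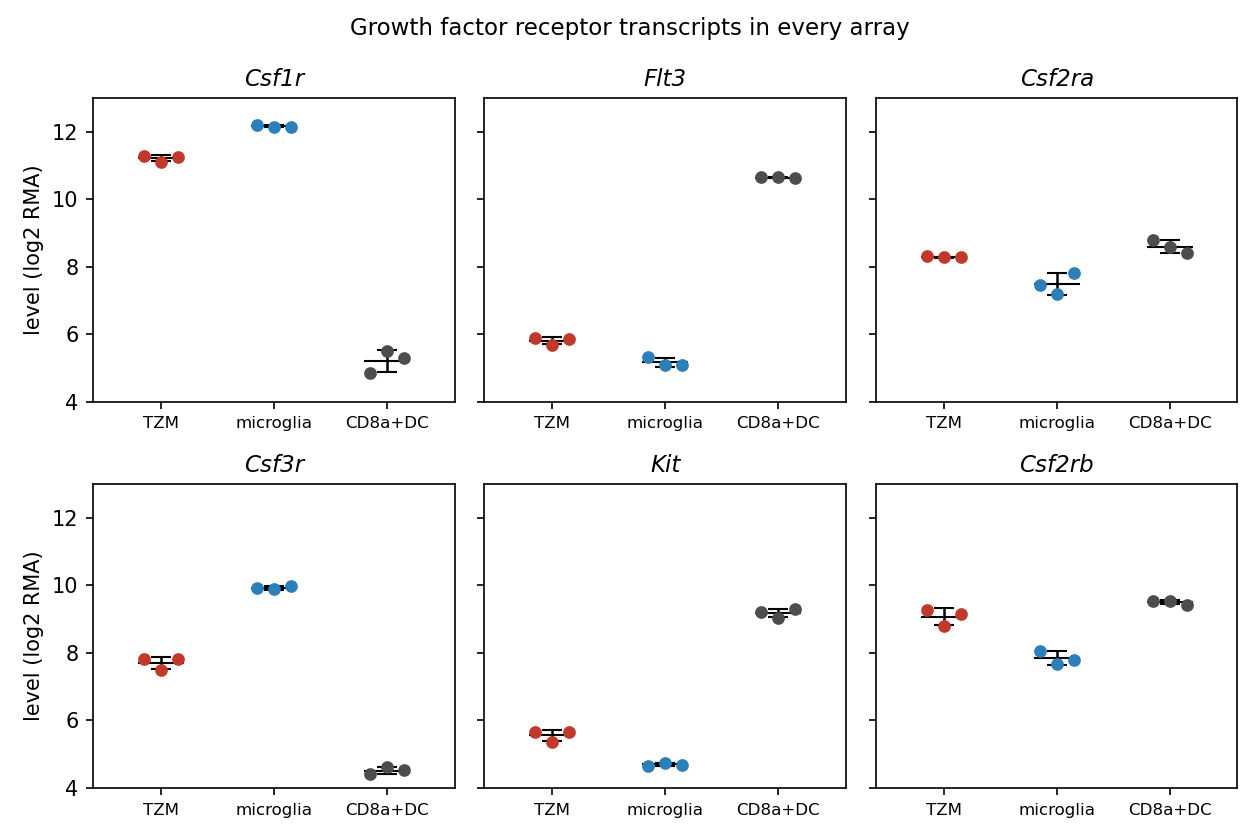
Level of each receptor transcript (log2 RMA) in the 3 arrays of TZM, microglia and CD8a+DC, 1 point per array in replicate order, with the mean and SD as bars. Csf1r and Csf3r are high in microglia and TZM, Flt3 and Kit in CD8a+DC, and Csf2ra and Csf2rb lie above 7 in all 9 arrays.

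Csf1r, the CSF1 and IL-34 receptor, measured 11.28, 11.12 and 11.26 in TZM, 12.20, 12.15 and 12.15 in microglia and 4.84, 5.50 and 5.28 in CD8a+DC. The 3 groups did not overlap, and the dendritic cell arrays lay near the array medians. TZM stood above CD8a+DC by 6.01 on the log2 scale (95% interval 5.67 to 6.35, adjusted p = 4.5e-08), a 64.4-fold difference. Between TZM and microglia the log2 fold change was -0.95 (SE 0.15, 95% interval -1.28 to -0.61, adjusted p = 0.0020), which stayed just inside the fold minimum although every TZM array was below every microglia array. Microglia exceeded CD8a+DC by 6.96 (SE 0.15, adjusted p = 1.1e-08). No promoter is shown for this gene.

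Csf3r, the G-CSF receptor, set all 3 populations apart. It measured 7.81, 7.49 and 7.81 in TZM, 9.92, 9.88 and 9.98 in microglia and 4.40, 4.61 and 4.52 in CD8a+DC, so that each population formed a step of its own. TZM were 4.67-fold below microglia (log2 fold change -2.22, SE 0.10, adjusted p = 1.4e-06) and 9.16-fold above CD8a+DC (log2 fold change 3.20, SE 0.10, adjusted p = 1.6e-07). Microglia were above CD8a+DC by 5.42 (95% interval 5.19 to 5.65, adjusted p = 5.4e-09).

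Since Csf3r is best known from neutrophils, 10 neutrophil markers were read beside it. Their mean level per array was 4.90 to 5.64 in TZM, 3.90 to 3.95 in microglia and 3.95 to 4.04 in CD8a+DC. In TZM 3 of 10 reached a level of 6, namely S100a8, S100a9 and the chemokine receptor gene Cxcr2 (9.29, 9.27 and 8.77), and 0 did in microglia, where Csf3r was highest. S100a8 was at 5.89, 9.28 and 7.32 in TZM replicates 1 to 3. Replicate 2, with the highest S100a8, had the lowest Csf3r, but it was the lowest TZM array for 5 of 6 receptors. Csf3r was exactly equal in replicates 1 and 3, where S100a8 differed. The neutrophil surface gene Ly6g was at 3.13, 3.13 and 3.24 in TZM replicates 1 to 3, and Elane and Mpo, of early granulocytes, also stayed under the array medians. The part of neutrophils in the Csf3r level of TZM was not tested.

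Flt3, the receptor of the dendritic cell growth factor FLT3 ligand, showed the reverse of Csf1r. It measured 5.88, 5.69 and 5.86 in TZM, 5.33, 5.09 and 5.09 in microglia and 10.65, 10.65 and 10.63 in CD8a+DC, where the arrays spread by only 0.01 (SD). TZM were below CD8a+DC by a log2 fold change of -4.83 (95% interval -5.03 to -4.64, adjusted p = 8.6e-09), a 28.5-fold difference, and microglia by one of -5.48 (95% interval -5.67 to -5.28, adjusted p = 2.4e-09). The difference between TZM and microglia was small but larger than the spread of the arrays, at 0.64 on the log2 scale (SE 0.08, adjusted p = 0.00074), and it fell under the fold minimum.

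Kit, the stem cell factor receptor, had the same order of populations as Flt3. It measured 5.65, 5.36 and 5.65 in TZM, 4.65, 4.75 and 4.69 in microglia and 9.23, 9.05 and 9.29 in CD8a+DC, with no overlap between populations. TZM were 12.4-fold below CD8a+DC (log2 fold change -3.63, SE 0.10, adjusted p = 7.9e-08), and microglia were below CD8a+DC as well, at -4.49 (SE 0.10, adjusted p = 1.3e-08). TZM exceeded microglia by 0.86 (95% interval 0.63 to 1.08, adjusted p = 0.00036), again under the fold minimum. Mast cells and basophils, which carry KIT at high level, were sought through 10 markers, of which 0 reached 6 in any population. Their mean per array was 3.93 to 4.13 in TZM, 3.78 to 3.84 in microglia and 3.81 to 3.84 in CD8a+DC. Of these 10, 1 was called between TZM and microglia, where 7.65% of all genes were called. This was the mast cell protease gene Mcpt4, which averaged 4.35 ± 0.15 in TZM and 3.27 ± 0.04 in microglia (log2 fold change 1.08, adjusted p = 5.6e-05). The protease gene Cpa3 had a value of 0.60 (adjusted p = 0.015). Mcpt4 and Cpa3 both averaged under the array medians in TZM and in microglia. The remaining markers of the list had adjusted p of 0.096 or more, and Ms4a2 had a negative value (-0.13). The part of mast cells in the Kit difference was not tested. Of 6 progenitor markers 1, the transcription factor Myb, reached 6 in CD8a+DC, and 1, Cd34, did so in microglia. The progenitor list averaged 4.28 to 4.40 per array in TZM, 5.03 to 5.24 in microglia and 4.50 to 4.68 in CD8a+DC. The part of progenitors in the Kit level was not tested.

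Markers of type 1 dendritic cells were read beside the small excess of Flt3 and Kit in TZM over microglia. Most had higher values in TZM, and Tlr3 and Cadm1 had lower ones. Of 10 markers 2 were called higher and 1 lower in TZM than in microglia, where 4.25% of all genes were called higher and 3.4% lower. Their mean level per array was 6.21 to 6.33 in TZM, 5.82 to 5.90 in microglia and 9.68 to 9.79 in CD8a+DC. The higher ones were Itgax, which encodes the dendritic cell sort marker CD11c (2.88, adjusted p = 2.1e-07), and Clec9a (adjusted p = 0.00026), and the lower one was Tlr3 (-2.12, adjusted p = 2.2e-05). Clec9a averaged 4.81 ± 0.33 in TZM and 3.50 ± 0.03 in microglia (SD, n = 3 each), under the array medians in both. Under the fold minimum, Cd8a (0.84, adjusted p = 0.00076) and Xcr1 (0.47, adjusted p = 0.0031) had positive values and Cadm1 a negative one (-0.55, adjusted p = 0.0054). The other 4 had positive values too, with adjusted p of 0.062 or more. They were Zbtb46 (0.32), Batf3 (0.31), Wdfy4 (0.24) and Itgae (0.14). The part of these cells in the result was not tested.

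The 2 chains of the GM-CSF receptor were above the array medians in every population. Csf2ra, the ligand-binding chain, measured 8.30, 8.27 and 8.27 in TZM, 7.46, 7.18 and 7.82 in microglia and 8.79, 8.59 and 8.41 in CD8a+DC. Csf2rb, the signalling chain, measured 9.28, 8.79 and 9.16 in TZM, 8.06, 7.67 and 7.79 in microglia and 9.55, 9.52 and 9.43 in CD8a+DC. In both the dendritic cell arrays lay a little above the TZM arrays and the microglia arrays lay lowest, without overlap.

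Neither chain was called between TZM and CD8a+DC. For Csf2ra the log2 fold change was -0.31 (95% interval -0.67 to 0.05, adjusted p = 0.24), and for Csf2rb it was -0.43 (95% interval -0.75 to -0.10, adjusted p = 0.070), so a difference of the fold minimum lies outside both intervals. Against microglia, TZM were higher in Csf2rb by 1.23 (SE 0.14, adjusted p = 0.00036), a 2.35-fold difference, and for Csf2ra the value was 0.80 (SE 0.16, adjusted p = 0.0073), under the fold minimum. Microglia were lower than CD8a+DC in both, with log2 fold changes of -1.66 for Csf2rb (SE 0.14, adjusted p = 3.7e-05) and -1.11 for Csf2ra (SE 0.16, adjusted p = 0.00083). The Csf2ra call ended without microglia replicate 2, the lowest microglia array (log2 fold change -0.96).

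**Figure D2:**
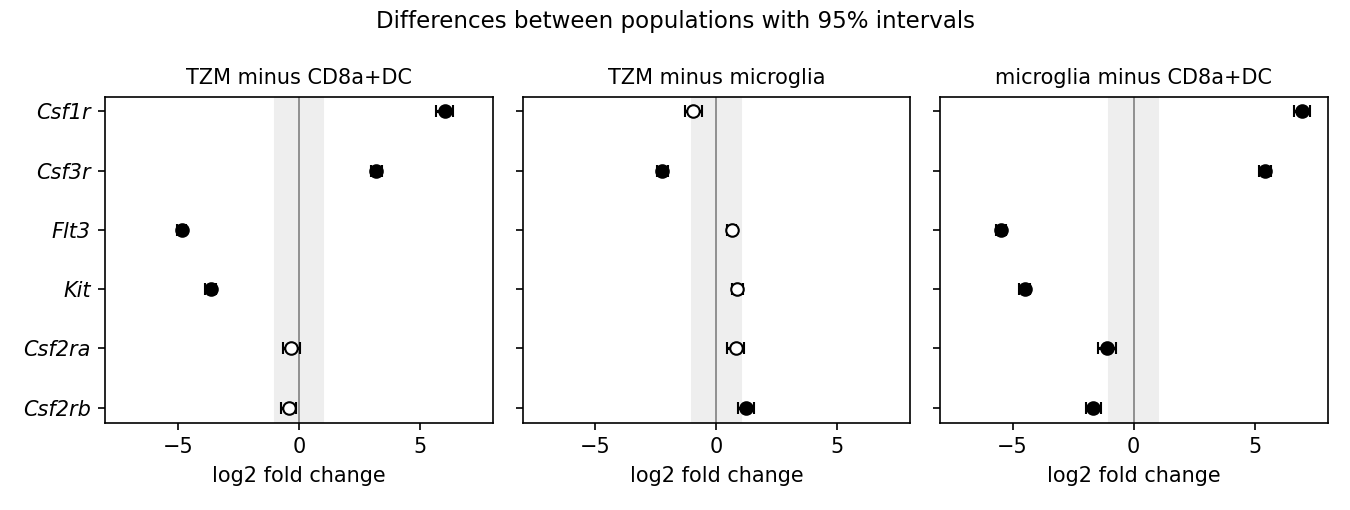
Log2 fold change of each receptor (points) with its 95% interval (bars) for TZM minus CD8a+DC, TZM minus microglia and microglia minus CD8a+DC. Filled points passed the call, open points did not, and the grey band marks the fold minimum of 1 on either side of 0. All 6 points are filled for microglia minus CD8a+DC, against 4 for TZM minus CD8a+DC and 2 for TZM minus microglia.

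The mean of TZM lay between those of microglia and CD8a+DC for 6 of 6 receptors. Over all genes TZM took the middle place in 38.9%, and among the 2224 genes called between microglia and CD8a+DC in 71.8%, so that a middle place by itself was common. The receptors differed in where in the middle TZM stood. As a percentage of the log2 distance from the CD8a+DC mean to the microglia mean, TZM stood at 86.4% for Csf1r, 88.3% for Flt3 and 80.9% for Kit, which is near microglia for all 3 receptor tyrosine kinases. They stood at 59.0% for Csf3r, at 28.0% for Csf2ra and at 25.7% for Csf2rb, so that the GM-CSF receptor chains lay nearer to CD8a+DC. With each of the 9 arrays left out in turn, the lowest place of a tyrosine kinase was 78.7% (Kit) and the highest of a GM-CSF receptor chain was 33.5% (Csf2ra), while Csf3r ran from 58.0% to 61.0%. The distances for Csf1r, Csf3r, Flt3 and Kit reach down to levels near background. For Flt3 both TZM (mean 5.81) and microglia (5.17) lay toward those levels, as did both for Kit (5.56 and 4.70). This limits what the places of Flt3 and Kit show. For Csf1r both means were high (11.22 in TZM and 12.16 in microglia). These places were not tested against each other.

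**Figure D3:**
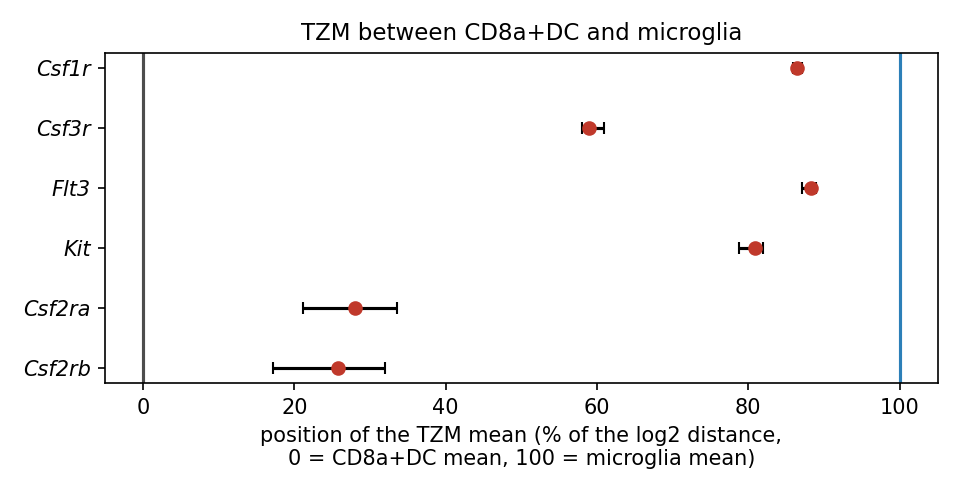
Place of the TZM mean on the log2 scale for each receptor, with the CD8a+DC mean at 0 (grey line) and the microglia mean at the other end of the distance (blue line). Points are the means of 3 arrays per population and bars span the values with each of the 9 arrays left out. Csf1r, Flt3 and Kit lie at 80.9% or more, Csf3r at 59.0%, and Csf2ra and Csf2rb at 28.0% or less.

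Within TZM, replicate 2 was the lowest of the 3 arrays for 5 of 6 receptors, and it tied with replicate 3 for Csf2ra. Over all genes replicate 2 was the lowest TZM array in 33.4%. The same array had the highest levels of the neutrophil gene S100a8 and the salivary gland gene Bpifa2 among TZM. Without it no receptor changed its call in the comparisons of TZM, and the value that moved most was that of Csf2rb, to 1.38 against microglia and -0.29 against CD8a+DC.

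The genes most like a receptor over the arrays were sought next. Likeness was the root mean square difference of the log2 profiles over the 9 arrays after each gene was centred on its own mean. The 3 nearest genes were taken for each receptor whose population means spanned at least 2. Predicted genes, clones, small RNAs, pseudogenes and antigen receptor segments were passed over. For Csf1r these were the apoptotic cell receptor Mertk (0.26), the purinergic receptor P2ry13 (0.38) and the complement gene C1qb (0.38). For Csf3r they were Pros1 (0.25), which encodes protein S, the IgG receptor gene Fcgr1 (0.26) and Adgre1 (0.26), which encodes F4/80. Pros1 averaged 7.23 in TZM, 9.85 in microglia and 4.27 in CD8a+DC. It was picked for its likeness to Csf3r, so the shared order is not separate evidence. For Flt3 they were the kynurenine pathway enzyme gene Kmo (0.21), Hepacam2 (0.22) and the inhibitory receptor gene Btla (0.26), and for Kit the protease gene Napsa (0.20), the ubiquitin ligase gene Nedd4 (0.22) and the kinase gene Map4k1 (0.23). Mertk and Fcgr1, which encodes CD64, correspond to sort markers, so their patterns follow the sort in part.

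Among the ligands of the receptors, the genes that differed were Csf1 and Kitl, both highest in microglia. Of 8 ligand genes, 0 were called between TZM and CD8a+DC, where 8.74% of all genes were called. In TZM 2 were lower and 0 higher than in microglia (25% called, against 7.65% of all genes). In microglia 2 were higher and 0 lower than in CD8a+DC (25%, against 11.2%). The median log2 fold change for TZM against CD8a+DC was 0.03, beside 0.02 over all genes. Csf1 measured 6.38, 6.20 and 6.37 in TZM, 9.04, 8.50 and 9.24 in microglia and 5.32, 5.19 and 5.55 in CD8a+DC. TZM were 6.10-fold below microglia (log2 fold change -2.61, SE 0.18, adjusted p = 1.8e-05), and microglia were above CD8a+DC by 3.57 on the log2 scale (SE 0.18, adjusted p = 1.5e-06). Between TZM and CD8a+DC the Csf1 difference was 0.96 (adjusted p = 0.0053), just under the fold minimum, and it passed without TZM replicate 2 (1.02) or CD8a+DC replicate 3 (1.06).

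Kitl, which encodes stem cell factor, measured 3.51, 3.44 and 3.20 in TZM, 4.71, 5.21 and 5.26 in microglia and 3.19, 3.32 and 3.23 in CD8a+DC. TZM were below microglia at -1.68 (SE 0.15, adjusted p = 8.3e-05) and microglia above CD8a+DC at 1.81 (SE 0.15, adjusted p = 3.1e-05). The microglia arrays lay about the array medians and the others under them, so Kitl stayed at levels near background in every population. Even so, every microglia array was above every array of the others. Il34, the second CSF1R ligand, averaged 4.33 ± 0.08 in TZM, 4.24 ± 0.12 in microglia and 4.24 ± 0.05 in CD8a+DC, and Flt3l averaged 5.66 ± 0.23 in TZM, 5.79 ± 0.27 in microglia and 5.66 ± 0.03 in CD8a+DC (SD, n = 3 each). Csf2, Csf3, Il3 and Il5 lay between 2.8 and 4.0 on average in every population, under the array medians.

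Of 6 measured partner subunits and related receptors, 0 were called in either comparison of TZM, where 8.74% (CD8a+DC) and 7.65% (microglia) of all genes were called. Between microglia and CD8a+DC 1 was called, lower in microglia (16.7%, not far from the 11.2% of all genes). This was Csf2rb2, the mouse IL-3-specific copy of the shared chain, which measured 8.05, 7.49 and 8.06 in TZM, 7.13, 7.06 and 7.12 in microglia and 8.34, 8.05 and 8.14 in CD8a+DC. Its log2 fold change for microglia against CD8a+DC was -1.07 (SE 0.15, adjusted p = 0.00088), and the call ended without CD8a+DC replicate 1 (-0.99). Csf2rb2 is a close copy of Csf2rb, so their probe sets may share signal, and their like order over populations does not count as separate evidence. The IL-3 receptor chain Il3ra averaged 6.47 ± 0.29 in TZM, 6.07 ± 0.10 in microglia and 6.28 ± 0.05 in CD8a+DC. Il5ra, Pdgfra, Pdgfrb and Epor averaged between 3.3 and 5.1 in every population.

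The genes around the receptors were counted by list. The receptors and the lists were chosen with earlier results of these data known, and all genes include many at levels near background. Both limit what a share above that of all genes shows. Of 80 measured genes in the 6 lists around the receptors, 14 were higher and 10 lower in TZM than in CD8a+DC (30% called, against 8.74% of all genes), 5 higher and 6 lower in TZM than in microglia (13.8%, against 7.65%), and 14 higher and 13 lower in microglia than in CD8a+DC (33.8%, against 11.2%). Over all genes, too, the fewest calls were between TZM and microglia. Without the fold minimum the lists had 40, 34 and 42 called genes in these comparisons. The share of all genes called in that way was not computed, so these counts stand without a background. The comparisons of TZM and of microglia with CD8a+DC share the CD8a+DC arrays, so their values stand side by side only.

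The all-gene shares of 8.74%, 7.65% and 11.2% are the background for each list that follows. Of 16 genes for MAP kinase feedback, survival and cycle entry, 6 were higher and 2 lower in TZM than in CD8a+DC (50% called, median log2 fold change 0.37, against 0.02 over all genes), 0 higher and 1 lower in TZM than in microglia (6.25%, median 0.05), and 6 higher and 1 lower in microglia than in CD8a+DC (43.8%, median 0.22). Etv5, an ETS factor induced by growth factor signalling, measured 9.82, 8.90 and 9.75 in TZM, 9.35, 9.35 and 9.29 in microglia and 4.91, 5.48 and 4.99 in CD8a+DC. Its log2 fold change was 4.36 for TZM (SE 0.24, adjusted p = 3.9e-06) and 4.21 for microglia (SE 0.24, adjusted p = 3.6e-06) against CD8a+DC. The ERK phosphatase gene Dusp6 was higher by 2.85 in TZM and by 3.51 in microglia, and Myc by 2.69 in TZM and 2.68 in microglia. Dusp5, another phosphatase gene of the pathway, went the other way, with log2 fold changes of -1.96 in TZM and -2.15 in microglia. Spry1, a feedback inhibitor, was the gene called between TZM and microglia (-1.09, adjusted p = 0.014), and its call ended without microglia replicate 2 (-0.78).

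**Figure D4:**
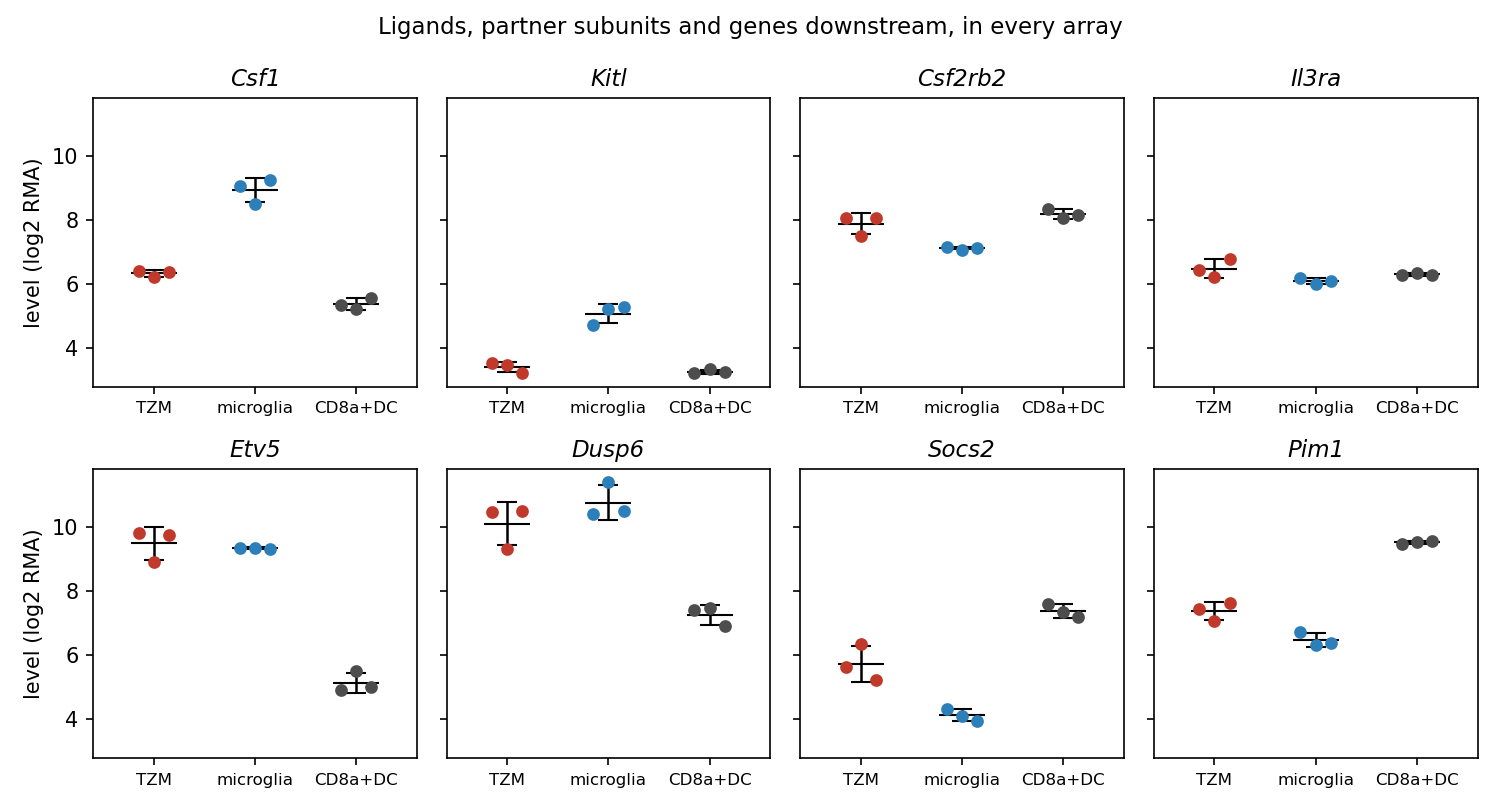
Level (log2 RMA) of 2 ligand genes, 2 partner subunits and 4 genes downstream in the 3 arrays of TZM, microglia and CD8a+DC, 1 point per array in replicate order, with the mean and SD as bars. Csf1 and Kitl are highest in microglia, Etv5 and Dusp6 are low in CD8a+DC, and Socs2 and Pim1 are highest in CD8a+DC.

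In the Janus kinase and STAT arm, used by the GM-CSF and G-CSF receptors, 1 of 11 genes was higher and 4 were lower in TZM than in CD8a+DC (45.5% called, median -0.27). Against microglia 1 was higher and 1 lower in TZM (18.2%, median 0.21), and 1 was higher and 4 were lower in microglia than in CD8a+DC (45.5%, median -0.24). Jak2, the kinase bound to the GM-CSF receptor, was lower than in CD8a+DC at -1.54 in TZM (adjusted p = 0.00012) and -2.32 in microglia (adjusted p = 6.9e-06). The kinase gene Pim1, a STAT5 target, was lower than in CD8a+DC at -2.15 in TZM and -3.07 in microglia. Socs2, a STAT5-induced inhibitor, measured 5.62, 6.33 and 5.21 in TZM, 4.32, 4.09 and 3.94 in microglia and 7.59, 7.35 and 7.17 in CD8a+DC, which gave 1.60 for TZM against microglia (SE 0.26, adjusted p = 0.0026) and -1.65 for TZM against CD8a+DC (SE 0.26, adjusted p = 0.0021). Socs3, an inhibitor induced through STAT3 and a brake on the G-CSF receptor, ran the opposite way. It averaged 7.92 in TZM, 9.47 in microglia and 6.45 in CD8a+DC, the order that Csf3r also had, with 1.46 for TZM against CD8a+DC (adjusted p = 0.00012) and -1.55 for TZM against microglia (adjusted p = 0.00010).

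Of 22 measured genes of proximal signalling, 5 were higher and 2 lower in TZM than in CD8a+DC (31.8% called, against 8.74% of all genes, median 0.01), 3 higher and 1 lower in TZM than in microglia (18.2%, against 7.65%, median -0.03), and 1 higher and 3 lower in microglia than in CD8a+DC (18.2%, against 11.2%, median 0.08). The last share was not far from that of all genes. The ubiquitin ligase gene Cblb had log2 fold changes of -2.38 in TZM (SE 0.15, adjusted p = 9.2e-06) and -2.29 in microglia (SE 0.15, adjusted p = 8.6e-06) against CD8a+DC. The kinase gene Syk (1.43) and the adaptor genes Gab2 (1.31) and Gab3 (1.28) were among those higher in TZM than in CD8a+DC. The SRC family kinase gene Fgr set TZM apart from microglia at 2.75 (SE 0.24, adjusted p = 7.5e-05), and the lipid phosphatase gene Inpp5d was lower in TZM than in microglia at -1.35. Gab2 was higher in microglia than in CD8a+DC by 1.05, a call that ended without microglia replicate 3 (0.95). The call of Src between TZM and microglia (1.02) ended without TZM replicate 1 (0.93) or microglia replicate 2 (0.90).

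Of 17 transcription factors known to act on the receptor genes, 2 were higher and 2 lower in TZM than in CD8a+DC (23.5% called, against 8.74% of all genes, median 0.09), 1 higher and 1 lower in TZM than in microglia (11.8%, against 7.65%, median 0.02), and 4 higher and 4 lower in microglia than in CD8a+DC (47.1%, against 11.2%, median 0.07). Between TZM and microglia the share was near that of all genes. Cebpa, a myeloid factor of the Csf1r and Csf3r genes, had log2 fold changes of 3.09 in TZM (SE 0.12, adjusted p = 5.6e-07) and 3.58 in microglia (SE 0.12, adjusted p = 1.5e-07) against CD8a+DC, and Ets2 had 2.90 in both. Bcl11a, a factor of lymphoid and dendritic cell development, was lower than in CD8a+DC at -2.91 in TZM and -3.27 in microglia. Myb, a factor of progenitors, was lower than in CD8a+DC at -2.00 in TZM and -2.22 in microglia. Runx3 was higher in TZM than in microglia by 2.90 (SE 0.16, adjusted p = 5.7e-06), and Fli1 was lower in TZM than in microglia at -1.24. Spi1, which encodes PU.1 and is named after its values were seen, averaged 9.61 ± 0.38 in TZM, 9.57 ± 0.15 in microglia and 10.01 ± 0.09 in CD8a+DC and was not called in any comparison (adjusted p = 0.17, 0.93 and 0.12).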

How the data were processed

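RNA of 3 sorted mouse cell populations was measured on Affymetrix arrays, 1 array for each of 9 samples. The log2 values were deposited by the authors. They come, according to the submitters' processing notes, from RMA in Affymetrix Expression Console 1.3.1. RMA corrects background, normalizes between arrays and summarises probes into probe sets. RMA aligns the distributions of the arrays, so levels are relative within each array. Its probe set summary also leaves exact ties: 4.36% to 7.39% of genes were equal to all deposited digits between 2 arrays, which can narrow a spread, and TZM replicates 1 and 3 were so for Csf3r and Kit. No 2 arrays were identical.

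Probe sets were named from the platform annotation, with symbols updated through Entrez identifiers to the RefSeq gene table of GRCm38.p6 (21698 of 21789 single-symbol probe sets matched). The brightest probe set was kept per gene, which left 19938 genes. Some genes of the lists are not reported here. Differences were tested over all genes in 1 limma 3.58.1 model of the 9 arrays with a term for population (R 4.3.3), first tested on simulated data. SE and 95% intervals come from this fit, and p-values were Benjamini-Hochberg adjusted over all genes. The number of arrays limits the precision. The labels do not say whether replicates were separate animals, so the spread may be partly technical.

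Named were the 6 receptors, the ligand and partner genes, up to 4 called genes of each other list per comparison by size of change, and the 3 genes nearest in pattern. The members and lists were chosen with earlier results of these data known. Tried as alternatives were calls without the fold minimum, a filter that kept genes at 6 or more in 3 or more arrays, quantile normalization, median centring, the mean of probe sets, every probe set, only the compared groups, array weights, a robust trended eBayes, a block for the replicate number, and leaving out each array.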

Additional observations from a re-analysis of the deposited data

How the results depend on the processing

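Of 342 fold changes of the receptors under 19 alternatives, 337 kept their direction and their side of the threshold and 0 reversed. Many of these could not reverse, since the setting leaves a receptor's log2 fold change as it was. Such settings were calls without the fold minimum, the level filter, both probe set settings, only the compared groups, the trended eBayes and the replicate block. Leaving out an array of a population not compared is another. With no minimum fold change, 4 more receptors passed between TZM and microglia, namely Csf1r (-0.95, adjusted p = 0.0020), Flt3 (0.64), Kit (0.86) and Csf2ra (0.80), for 6 in all. The genes called in the lists around the receptors then numbered 40 for TZM against CD8a+DC, 34 for TZM against microglia and 42 for microglia against CD8a+DC, in place of 24, 11 and 27. No share of all genes was computed without the fold minimum, so neither these counts nor the 6 receptors can be set against a background. Without microglia replicate 2, Csf2ra fell under the fold minimum for microglia against CD8a+DC (-0.96). With single arrays left out, the log2 fold change of Csf2ra in that comparison ran from -1.28 to -0.96, and the number of called receptors ran from 5 to 6. The numbers of called list genes ran from 23 to 25, from 11 to 15 and from 25 to 28. Between TZM and microglia, Src ended its call, just under the fold minimum, with median centring and with quantile normalization (0.99).

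The replicate number as a block changed no call of a receptor, and for TZM against microglia 2 receptors stayed called. Of 9 same-numbered pairs of arrays, 1 had a correlation of deviations over 0.1 (range -0.15 to 0.13). Pairs with unlike numbers ran from -0.19 to 0.15, so same-numbered arrays were not more alike. With 3 arrays per population this cannot exclude that samples were paired. Levels near the array medians limit what can be read of Csf1r and Csf3r in CD8a+DC and of Flt3 and Kit in TZM and microglia, since no detection call was used.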
